A study of Gallus gallus with 16 samples.

Results

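Vesicle and membrane trafficking genes were examined in abdominal fat of chickens from 2 lines divergently selected on body weight, high growth (HG) and low growth (LG). The genes were those whose symbol, in a list of genes that the study called different between these same birds, begins with RAB, VPS, SNX, STX, SEC, COP, TRAPPC, EXOC, ARF or ARL, and whose count reached 10 in the higher line. They numbered 30 of the 17854 loci in the deposited table. Abdominal fat was taken at 7 weeks of age from 4 HG and 4 LG cockerels, both lines derived from 1 meat-type population, and each bird's mRNA was sequenced in 2 lanes. The authors deposited 1 estimated count per gene and line over the 4 birds, together with a variance from their model, and single birds were therefore not analysed here. Since the list came from the same contrast, the HG/LG differences of the 30 genes are a description and carry no test.

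Cells move proteins and lipids between compartments in coated vesicles and tubules. Coats (COPII out of the endoplasmic reticulum, COPI back to it) select cargo, small GTPases of the Rab and ARF families mark each membrane, tethering complexes such as the exocyst catch the arriving vesicle, and SNARE proteins fuse it with its target. Adipocytes use this machinery to secrete adipokines and lipoprotein lipase, to place transporters and receptors at the cell surface, and to exchange lipid with the lipid droplet.

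Of the 30 trafficking genes, 24 had the higher count in HG and 6 the lower, where 75.3% of all genes tested had the higher count in HG. The 6 lower in HG were STXBP5L, RAB20, SNX16, EXOC4, RAB11FIP1 and RABGGTB. The log2 HG/LG ratios of the 30 genes had a median of 0.67 (quartiles 0.52 and 0.85), beside 0.26 over the 10484 genes tested. The members ranged from -1.60 for STXBP5L to 1.48 for STXBP4. Ratios carry a pseudocount of 1. Testing was limited to genes above 0 in both lines, marked OK, and with 10 or more counts in the higher line. Because the median gene was itself 0.26 above 0 and the column totals differed by 0.39 on the same scale (4421254 in HG, 3365950 in LG), each direction was also read against those 2 references. All 30 kept their side against both, with VPS36, at 0.47, the nearest above the ratio of the totals. The choice of members favours this, so it is no sign of stability. The column totals are not library sizes, as both lie far below the mapped reads that the paper gives for any single bird. The paper gives slightly more reads for LG than for HG, whereas the column total is higher in HG. In a bulk sample, fewer cells of a type and less RNA per cell cannot be told apart.

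Of the members, 24 had a log2 ratio between -1 and 1, 5 lay above 1 (STXBP4, RAB23, ARL6IP5, RAB11FIP2 and RABEP1) and 1 lay below -1 (STXBP5L). Over all genes tested, 5.79% had a ratio of 1 or more and 3.74% a ratio of -1 or less. Over the other 1334 tested genes that carry a symbol in the same list, 853 were higher in HG and 481 lower, the median ratio was 0.69, and the quartiles were -0.27 and 1.02. Measured from the median gene, the median absolute log2 ratio was 0.51 for the trafficking genes, 0.66 for the others on that list and 0.25 for all genes tested. Both listed sets were selected on this contrast, and the values are not tested against each other. Together the 30 genes made up 0.363% of the column total in HG and 0.298% in LG.

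To pass the test over all genes, a gene needed a p, adjusted by Benjamini and Hochberg's procedure, of at most 0.05 and a fold change of 1.2 or more, with the deposited variances standing in for the spread between birds. Of the 30 trafficking genes, 4 passed, each higher in HG (ARL6IP5, RAB11FIP2, RAB23 and RABEP1), where 2.93% of all genes tested passed and 2.07% passed as higher in HG. The study had called all 30 different, so the test used here did not reproduce most of its calls among them. The rule selected on this contrast, so nothing is read from the count of 4 or from the member counts that follow. With ratios centred on the median gene, ARL6IP5 was the 1 member that passed, as higher in HG, against 2.18% of all genes in either direction and 0.992% as higher in HG. Division by the column totals left 0 members past the threshold, against 2.25% of all genes. At an unadjusted p of 0.05 or less there were then 8 of the 30 members, against 7.85% of all genes. Of the 30, 5 were there as higher in HG, against 2.64%, and 3 as lower, against 5.21%. If the deposited variance is that of 1 library, it is too large for a mean over 4 birds. With the variance divided by 4, 27 of the 30 members passed, against 27.1% of all genes. Of the 30, 24 passed as higher in HG, against 22.2% of all genes, and 3 as lower (EXOC4, RAB20 and STXBP5L), against 4.87%.

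**Figure D1:**
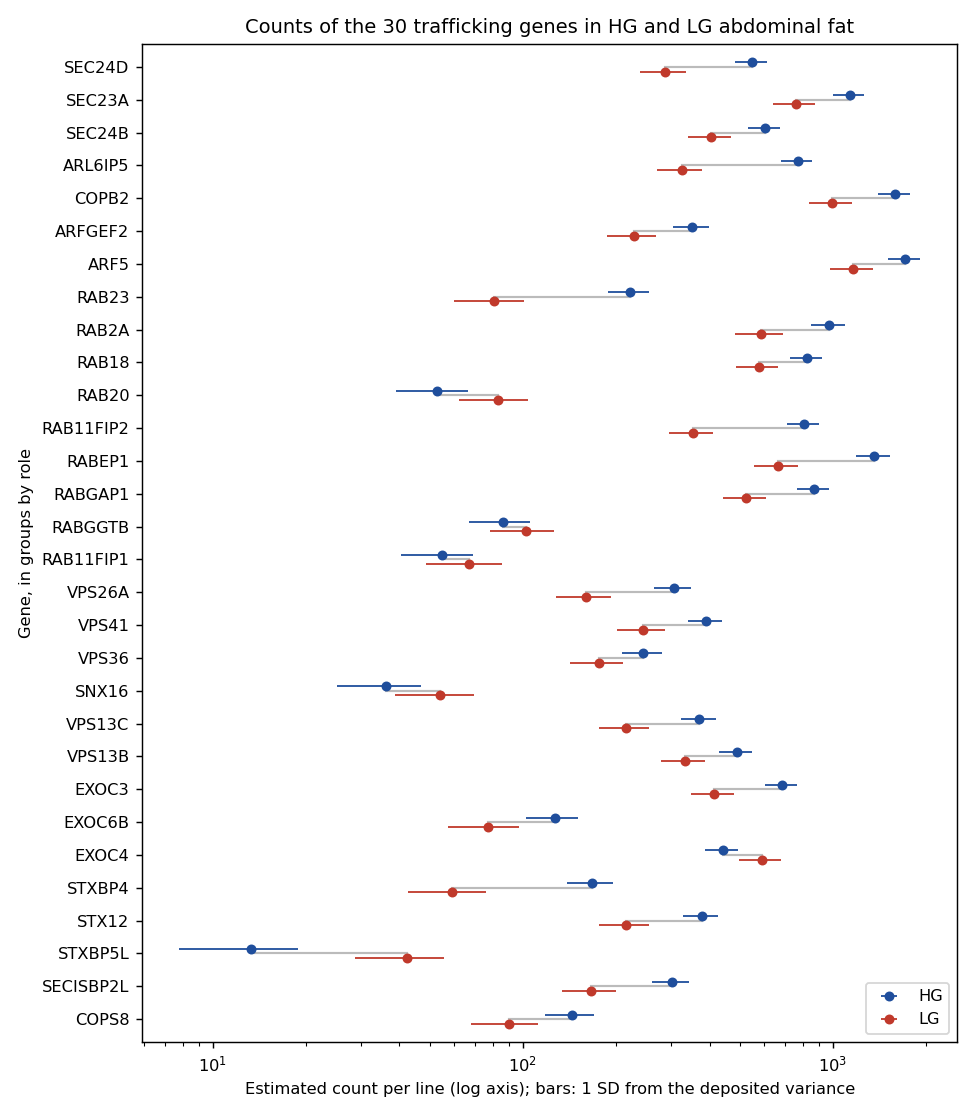
Estimated count of each of the 30 trafficking genes in HG (blue) and LG (red) abdominal fat on a log axis, ordered by role; bars are 1 SD from the deposited model variance and grey lines join the 2 values of a gene. Counts run from 13.3 to 1712 in HG and from 42.1 to 1162 in LG, and the blue point lies right of the red one in 24 genes.

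The COPII coat, which buds vesicles from the endoplasmic reticulum, was represented by 3 genes, all with higher counts in HG. SEC24D, a subunit that binds cargo, had 547 counts in HG fat against 286 in LG fat, for a log2 ratio of 0.93 (95% interval 0.34 to 1.52). SEC24B, a second cargo-binding subunit, had 604.1 counts in HG fat against 406 in LG fat, for a ratio of 0.57 (95% interval 0.01 to 1.13). SEC23A, which forms the inner coat layer with the SEC24 proteins and speeds GTP hydrolysis by SAR1, had 1133 counts in HG fat against 757 in LG fat, for a ratio of 0.58 (95% interval 0.04 to 1.12). Counts of SEC23A were 1.88 times those of SEC24B in HG and 1.87 times in LG, and their log2 ratios differed by 0.01 (95% interval -0.77 to 0.79). Such a quotient of 2 genes' counts includes their lengths, so its change between lines is what can be read, and the pairs of genes set side by side here were chosen after their values had been seen. The ratio of SEC24D exceeded that of SEC24B by 0.36, with an interval (-0.45 to 1.17) that includes 0.

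In retrograde traffic and the ARF cycle, COPB2, a subunit of the COPI coatomer, had 1588 counts in HG fat against 995 in LG fat, for a log2 ratio of 0.67 (95% interval 0.12 to 1.23). ARF5, a small GTPase of the early secretory pathway, had 1712 counts in HG fat against 1162 in LG fat, for a ratio of 0.56 (95% interval -0.0014 to 1.12). ARFGEF2, the exchange factor that loads ARF proteins with GTP at the trans-Golgi, had 351 counts in HG fat against 228 in LG fat, for a ratio of 0.62 (95% interval -0.0047 to 1.25). The ratios of the GTPase and the exchange factor differed by -0.06, with a wide interval (-0.90 to 0.78). ARL6IP5 (ENSGALG00000017436) was grouped here with the ARF genes, though it is neither a coat subunit nor a GTPase. This membrane protein of the endoplasmic reticulum, which in rodents retains a glutamate transporter there, had the highest ratio of the 4. Its count was 769 in HG and 325 in LG, a 2.36-fold higher value in HG (log2 ratio 1.24, 95% interval 0.67 to 1.81). Its ratio exceeded that of ARF5, the lowest of the 4, by 0.68, with an interval (-0.12 to 1.48) that includes 0.

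The 4 Rab GTPases spread over more than their ER and Golgi neighbours. RAB23 (ENSGALG00000016279), known in mouse as a brake on hedgehog signalling, had 221 counts in HG fat against 80.4 in LG fat, for a log2 ratio of 1.45 (95% interval 0.62 to 2.28). RAB2A, which acts between the endoplasmic reticulum and the Golgi and in fusion with lysosomes, had 972 counts in HG fat against 587 in LG fat, for a ratio of 0.73 (95% interval 0.12 to 1.33). RAB18, found in mammalian cells on the endoplasmic reticulum and on lipid droplets, had 824 counts in HG fat against 577 in LG fat, for a ratio of 0.51 (95% interval -0.03 to 1.06). These 3 were all higher in HG. RAB20, which takes part in maturation of phagosomes in mammalian macrophages, lay on the other side, with 52.8 counts in HG fat against 83.2 in LG fat, for a ratio of -0.65 (95% interval -1.66 to 0.37). Thus RAB23 counts were 4.19 times those of RAB20 in HG and 0.97 times in LG, a difference of the log2 ratios of 2.10 (95% interval 0.79 to 3.40). The log2 ratios of RAB2A and RAB18 differed by 0.21 (95% interval -0.61 to 1.03).

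Among the Rab regulators and effectors, the 2 RAB11 effectors of recycling endosomes went apart. RAB11FIP2 (ENSGALG00000009304), which links RAB11 to the motor myosin V, had 806 counts in HG fat against 354 in LG fat, for a log2 ratio of 1.18 (95% interval 0.62 to 1.74). RAB11FIP1, its paralog, had 54.7 counts in HG fat against 67.1 in LG fat, for a ratio of -0.29 (95% interval -1.34 to 0.76). The count of RAB11FIP2 was 14.7 times that of RAB11FIP1 in HG and 5.28 times in LG, a difference of 1.47 on the log2 scale (95% interval 0.28 to 2.66). This difference within lines does not depend on the scaling between them. The pair holds the highest and lowest ratio of its group of selected members, so the difference is a description. The interval of RAB11FIP1 alone includes 0.

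RABEP1 (ENSGALG00000001737), or rabaptin-5, the effector that carries RAB5 signals in fusion of early endosomes, had 1358 counts in HG fat against 663 in LG fat, for a log2 ratio of 1.03 (95% interval 0.46 to 1.61). RABGAP1, a GTPase-activating protein for Rab proteins, had 869 counts in HG fat against 525 in LG fat, for a ratio of 0.72 (95% interval 0.18 to 1.27). RABGGTB, the beta subunit of the transferase that adds geranylgeranyl lipid to Rab proteins so that they can enter membranes, had 86.1 counts in HG fat against 102 in LG fat, for a ratio of -0.24 (95% interval -1.15 to 0.66). Its ratio lay below those of RAB23, RAB2A and RAB18 and above that of RAB20, and its interval includes the ratios of RAB18 and RAB20. Those genes' ratios carry errors of their own, and no interval was computed for these differences.

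**Figure D2:**
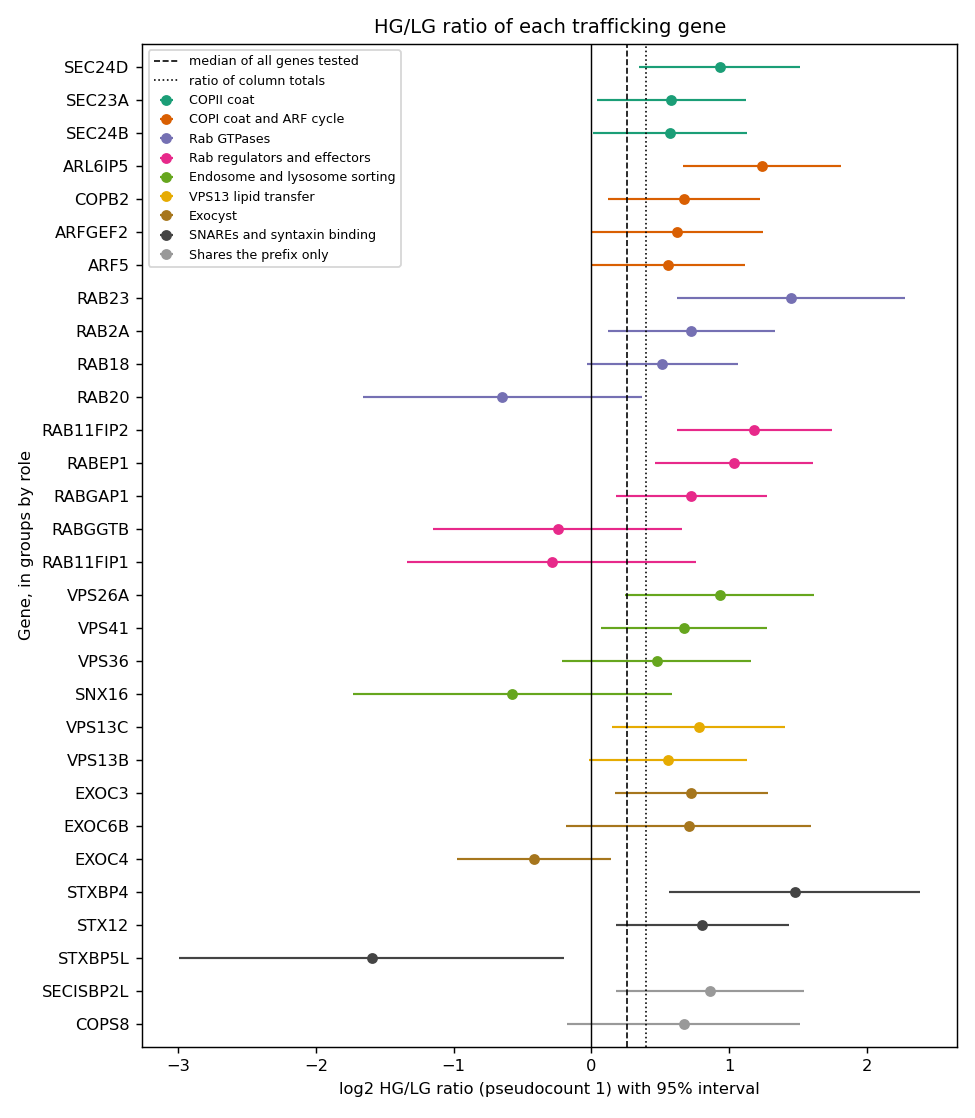
Log2 HG/LG ratio of each of the 30 trafficking genes with its 95% interval from the deposited variances, coloured by role; the solid line is 0, the dashed line the median of all genes tested (0.26) and the dotted line the ratio of the column totals (0.39). The points run from -1.60 for STXBP5L to 1.48 for STXBP4, and 24 of the 30 lie right of 0.

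Genes of endosome and lysosome sorting were led by VPS26A, a subunit of the retromer, which returns receptors from endosomes to the Golgi or the cell surface. It had 306 counts in HG fat against 160.2 in LG fat, for a log2 ratio of 0.93 (95% interval 0.25 to 1.61). VPS41, a subunit of the HOPS tether for fusion with lysosomes, had 389.6 counts in HG fat against 244 in LG fat, for a ratio of 0.67 (95% interval 0.07 to 1.28). VPS36, a subunit of ESCRT-II, which sorts ubiquitinated receptors into multivesicular bodies, had 244 counts in HG fat against 176 in LG fat, for a ratio of 0.47 (95% interval -0.22 to 1.16). The 3 subunits of these 3 different complexes were all higher in HG, whereas SNX16, a sorting nexin of endosomes, was lower. SNX16 had 36.1 counts in HG fat against 54.2 in LG fat, for a ratio of -0.57 (95% interval -1.73 to 0.58).

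VPS13B and VPS13C belong to a family of bridge-like proteins that carry lipid between membranes, VPS13B at the Golgi and VPS13C between the endoplasmic reticulum and late endosomes or lipid droplets in mammalian cells. VPS13C had 371 counts in HG fat against 216 in LG fat, for a log2 ratio of 0.78 (95% interval 0.15 to 1.41), and VPS13B 489.8 counts in HG fat against 333 in LG fat, for a ratio of 0.56 (95% interval -0.02 to 1.13). The 2 ratios differed by 0.22 (95% interval -0.63 to 1.07).

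The exocyst tethers secretory vesicles at the plasma membrane and in mouse adipocytes takes part in insulin-stimulated delivery of a glucose transporter. Of 13 exocyst genes looked for, 3 were reached through the study's list of genes called different. Of these, 2 had the higher count in HG and 1 the lower. EXOC3 had 683 counts in HG fat against 413 in LG fat, for a log2 ratio of 0.72 (95% interval 0.17 to 1.28), and EXOC6B had 127 counts in HG fat against 77.2 in LG fat, for a ratio of 0.71 (95% interval -0.18 to 1.60). EXOC4, in contrast, had 442 counts in HG fat against 590.3 in LG fat, for a ratio of -0.42 (95% interval -0.98 to 0.14). It was the 1 member lower in HG with a count above 110. Within each line, EXOC3 counts were 1.55 times those of EXOC4 in HG and 0.70 times in LG. The difference of their log2 ratios was 1.14 (95% interval 0.35 to 1.93), and that of EXOC6B from EXOC4 was 1.12 (95% interval 0.07 to 2.17). EXOC3 and EXOC6B differed by 0.02 (95% interval -1.03 to 1.07).

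At the fusion step, STX12, a SNARE of recycling endosomes, had 378 counts in HG fat against 216 in LG fat, for a log2 ratio of 0.81 (95% interval 0.18 to 1.44). The 2 syntaxin-binding proteins held the highest and the lowest ratio of the 30 genes at a pseudocount of 1, and at a pseudocount of 10 RAB23, at 1.36, lay above STXBP4, at 1.35. STXBP4 (ENSGALG00000003033), which binds syntaxin 4 and is released from it by insulin in mouse adipocytes, had 167 counts in HG fat against 59.2 in LG fat, for a ratio of 1.48 (95% interval 0.57 to 2.39). STXBP5L (ENSGALG00000014941), a tomosyn that hinders SNARE assembly, had 13.3 counts in HG fat against 42.1 in LG fat, for a ratio of -1.60 (95% interval -2.99 to -0.20). STXBP4 counts were 12.6 times those of STXBP5L in HG and 1.41 times in LG, a difference of 3.07 on the log2 scale (95% interval 1.40 to 4.74). Its relative SD of 41.3% in HG and 31.9% in LG made STXBP5L the least precise of the 30.

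**Figure D3:**
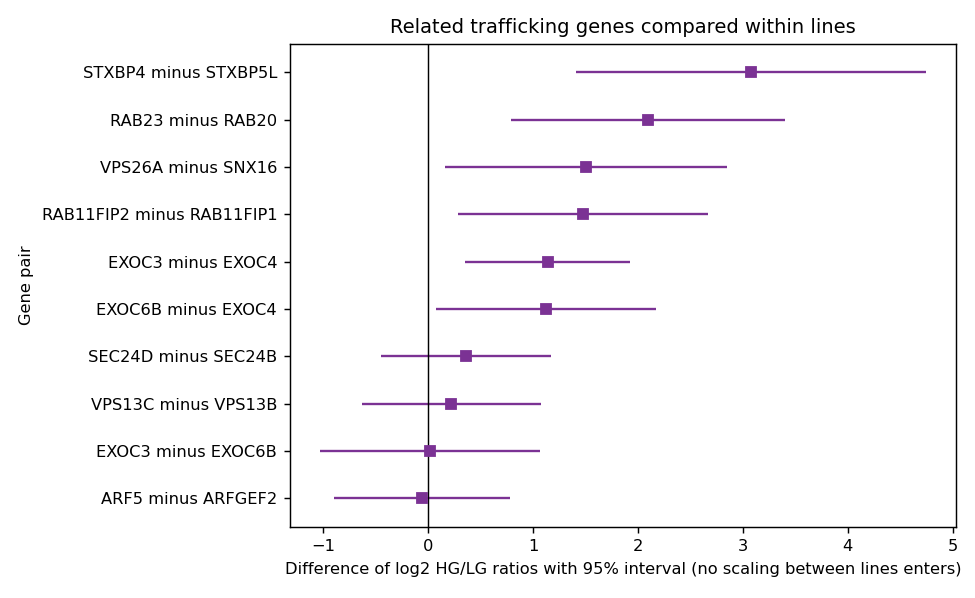
Difference between the log2 HG/LG ratios of 2 related trafficking genes, with its 95% interval; a value above 0 means that the first gene's HG excess is the larger, and the scaling between lines does not enter. The 10 differences run from 3.07 for STXBP4 and STXBP5L to -0.06 for ARF5 and ARFGEF2. The pairs were chosen from members selected on this contrast, some as the extremes of their group, so the differences are a description.

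Within the members, 2 genes share only letters with the trafficking families. SECISBP2L is related to a protein that binds selenoprotein mRNA, and COPS8 is a subunit of the COP9 signalosome, which acts on ubiquitin ligases. SECISBP2L had 303 counts in HG fat against 166 in LG fat, for a log2 ratio of 0.86 (95% interval 0.18 to 1.54), and COPS8 had 144 counts in HG fat against 90.1 in LG fat, for a ratio of 0.67 (95% interval -0.18 to 1.52). Without them the median over the remaining 28 genes was 0.67, with 22 higher in HG and 6 lower. Another 6 symbols with the listed prefixes, SEC31B, TRAPPC9, STX7, RAB5B and SEC22B among them, had an identifier without a row in the table and were not analysed here. All 30 with a row met the count minimum of 10, the lowest larger count being the 42.1 of STXBP5L.

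Counts are not divided by gene length, and in these units direction went with the size of the count. The 5 genes with the smallest counts in their higher line, all under 110 (STXBP5L, SNX16, RAB11FIP1, RAB20 and RABGGTB), were lower in HG, whereas 24 of the 25 with larger counts were higher in HG. The value of 110 was chosen after the counts were seen. At the same division, 53.6% of the 405 other symbol-bearing genes under 110 were lower in HG and 28.4% of the 929 at or above it, against 34.3% and 16.7% over all genes tested. The modelled precision followed the count too. The median relative SD over the 30 genes was 12.7% in HG and 17.8% in LG, against 20.2% and 24.6% over all genes tested. These SDs come from the authors' variance model and are not an observed spread between birds. For each of the 30, the part of the variance that comes from uncertain assignment to isoforms was 0 within rounding. The part from dispersion between replicates was 86.3% of the variance in HG and 77.7% in LG for RAB2A. For RABEP1 it was 85.3% in HG and 91.8% in LG, so the 2 deposited parts do not account for the whole variance of these genes. It exceeded the whole variance for VPS41 (102.9% in HG, 102.8% in LG) and EXOC4 (103.6% in HG, 100.5% in LG). The deposited parts therefore do not add up to the variance in either direction.

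**Figure D4:**
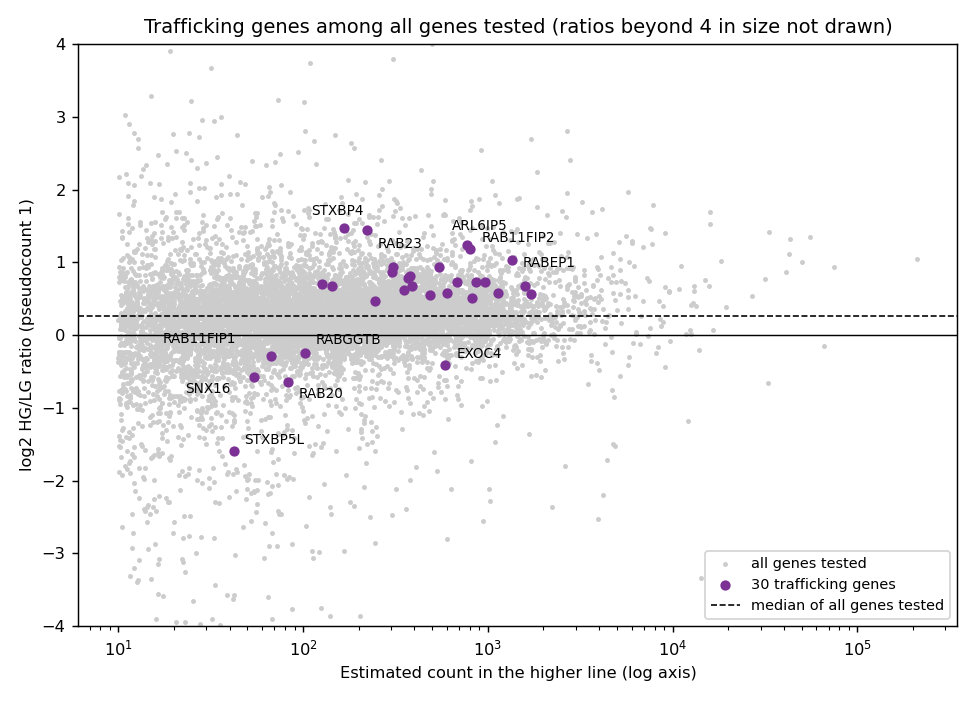
Log2 HG/LG ratio against the estimated count in the higher line (log axis) for all 10484 genes tested (grey) and the 30 trafficking genes (purple), with ratios beyond 4 in size not drawn; the dashed line is the median of all genes tested. The 5 trafficking genes under a count of 110 lie below 0, and EXOC4 is the 1 gene below 0 at larger counts.

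To place the members in their pathway, 400 genes of coats, tethers, SNAREs, GTPases, adaptors and caveolae were listed by complex. Symbols reached a row for 41 of them, each drawn from the study's own list, and 28 of the 41 were members. Passing genes numbered 4 of the 41, all higher in HG and all members, beside 2.07% of all genes tested. The median log2 ratio of the 41 was 0.62. Among the 13 that were not members, 10 were higher in HG and 3 lower, the median was 0.51, and 0 passed the delta-method test, with 4 at an unadjusted p of 0.05 or less, all higher in HG. Over all genes tested, 11.1% reached that unadjusted p, 8.56% as higher in HG and 2.54% as lower. Since the 13 also came from the study's list, which was selected on this contrast, nothing is read from that comparison.

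EEA1, the tether of early endosomes that RAB5 recruits, had 824 counts in HG fat against 579 in LG fat, for a log2 ratio of 0.51 (95% interval -0.04 to 1.05), beside 1.03 for RABEP1, another RAB5 effector. SAR1B, the GTPase that starts COPII assembly, had 442 counts in HG fat against 252.5 in LG fat, for a ratio of 0.81 (95% interval -0.59 to 2.20). CHMP2B, of the ESCRT-III filament, had 314 counts in HG fat against 219.9 in LG fat, for a ratio of 0.51 (95% interval -0.13 to 1.16). All 3 had intervals that include 0. CYTH1, an exchange factor for ARF proteins, had 209.6 counts in HG fat against 194 in LG fat, for a ratio of 0.11 (95% interval -0.64 to 0.86). These 4 had the highest count among the non-members of their lists, and 3 of the 4 lay above the median gene.

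Marker genes of cell types are given beside these results. Like the trafficking genes, they could be named only through the study's list of genes called different between the lines. Markers selected in this way cannot check the tissue or its mix of cells. Of 10 adipocyte markers 4 were reached through that list, with summed counts of 12249 in HG and 15200.5 in LG. The sum is lower in HG through PNPLA2, the main triglyceride lipase, with 5366 counts in HG fat against 12188 in LG fat. PPARG, the regulator of adipocyte differentiation, had 1774 counts in HG fat against 910 in LG fat, and GPD1, which makes glycerol 3-phosphate, 5108 counts in HG fat against 2103 in LG fat, and both passed as higher in HG. With ratios centred on the median gene neither passed, and PNPLA2 passed as lower in HG. DGAT2 was listed at 0 in both lines. The paper reports higher expression of DGAT2 in HG fat in an RNA-Seq gene network. The empty DGAT2 listing is therefore no sign that the gene is absent from this fat. Endothelial markers (2 of 8) summed to 4744 in HG and 2741 in LG. Leukocyte markers (4 of 12) summed to 3805 in HG and 3560 in LG, with CSF1R at the higher count in HG and LCP1, SPI1 and CD3E at the lower, and a median log2 ratio of -0.37. Skeletal muscle markers (5 of 10, TNNC2 at 0 in both lines) summed to 1319 in HG and 527 in LG. Most of it was ACTA1, with 1144 counts in HG fat against 526 in LG fat. The paper places TNNC2 among its most up-regulated RNA-Seq genes in HG, so the 0 of TNNC2 is no sign of absence either. The remaining 3 muscle markers were near 0 in LG, ACTN2 with 67.6 counts in HG fat against 1.13 in LG fat, TNNI2 with 23.7 in HG fat against 0.33 in LG fat, and MYBPC1 with 83.8 in HG fat against 0 in LG fat. The 1 hepatocyte marker of 10 that was reached, SERPINC1, had 4.40 counts in HG fat against 64.7 in LG fat. Its relative SD was 106% in HG and 46.3% in LG. The paper gives ALB, FGA, FGB and FGG among the genes most raised in LG by RNA-Seq. Of 10 mesothelial and epithelial markers, 0 were reached through the study's list, which does not show that their loci lack a row or counts. The part of these other cell types in the trafficking ratios was not tested.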

How the data were processed

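The data are RNA-Seq counts of abdominal fat from 4 HG and 4 LG cockerels at 7 weeks. The line was taken from the sample titles, since another label field gives HG for every sample. Per the submitters' processing notes, TopHat 1.3.3, with Bowtie 0.12.7, mapped the reads and Cuffdiff 2.0.2 counted them; the methods also name Btrim64, Cufflinks and the Galgal4 genome. The deposited values are estimated counts per gene and line, pooled by the authors over birds, not divided by gene length, so the size of a count, or a quotient of 2 genes' counts, is no comparison of their levels. The deposited variance columns, other values in squared counts, are those of the authors' model. Whether they refer to 1 library or to the mean is not stated, nor is the scaling between lines.

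The log HG/LG ratio over its delta-method standard error gave a two-sided p from the normal distribution. Benjamini-Hochberg adjustment ran over 10484 genes, with calls at 0.05 and a fold of 1.2. Printed ratios and intervals carry a pseudocount of 1, which the test does not. Differences between 2 genes' ratios treat their errors as independent. No test over birds is possible with 1 value per line, and intervals cover neither the scaling between lines nor any spread the model misses. Alternatives were centring on the median, column totals, count minimums of 0 and 50, the variance divided by 4 or with the count added, fold minimums of 1 and 2, and pseudocounts of 0 and 10.

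Symbols came from 1998 rows of the study's list of differentially expressed genes, whose fold changes and p values were not used. They gave 1993 identifiers, 1511 of them with a row, 1420 of these with a symbol. Members and gene lists were chosen with earlier results of these data known. By rule, every member was named, and non-members that passed or had the highest count in a member's list. Python 3.11.15, pandas 2.3.3, numpy 2.4.6, scipy 1.17.1 and matplotlib 3.10.9 were used.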

Additional observations from a re-analysis of the deposited data

How the results depend on the processing

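Of the 307 genes that passed over all genes, 217 were higher in HG and 90 lower. After centring on the median the split was 104 and 125, and with column totals 73 and 163. With the deposited variance divided by 4, the number of genes that passed was 2841, of trafficking members 27 and of the 41 listed trafficking genes 31. Centring left 1 member and 1 listed gene past the threshold, and column totals left 0 of each, with 8 members and 9 listed genes at an unadjusted p of 0.05 or less. RAB23, RAB11FIP2 and RABEP1 lost their call on centring. A count minimum of 50 added SEC24D and STXBP4, giving 6, and adding the count to the variance removed RAB23, giving 3. The other counts stayed within 1.5 times. With column totals the median log2 ratio was 0.28 for the members and 0.23 for the listed genes. A pseudocount of 10 moved each member's ratio by less than its standard error. No paired analysis was possible because each line has 1 pooled count per gene, and for the same reason no bird could be left out.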
